A study of Mus musculus with 20 samples.

Results

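Sp5, Axin2, Lef1, Tcf7, Nkd1 and Wnt8a, 6 genes widely used as readouts of beta-catenin activity, were followed through 20 mouse RNA-seq libraries. They were chosen by name as known targets of the pathway, with no threshold on expression. They are 6 of the 21361 genes in the deposited count table, and all 6 were among the 16363 genes that passed the filter on low counts and were tested.

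The series examined the potency of primordial germ cells (PGCs), the precursors of eggs and sperm, and profiled poly(A) RNA of mouse stem cell lines related to them. ESC Host lines are wildtype embryonic stem cells with a C57Bl6J strain label (n = 4). ESC BaxKO (n = 2, derived earlier) and ESC BaxHet (n = 1) are embryonic stem cells without Bax, an effector of apoptosis, or with 1 allele of it, under a C57Bl6J/129SvEvRoEp strain label. PGC-ESC BaxKO lines (n = 5) carry the same knockout and mixed strain label. PGC-ESC DKO lines (n = 3, C57Bl6J) lack both Puma and Noxa, a pair of BH3-only death genes. Epiblast-like cells (EpiLCs) are a culture model of the epiblast after implantation. EpiLC Host (n = 2) was made from ESC Host lines 3 and 4, and EpiLC DKO (n = 3) from PGC-ESC DKO lines 1 to 3. The only growth protocol in the labels is attached to all 20 libraries and describes a serum-free medium with LIF, the MEK inhibitor PD0325901 and the GSK3 inhibitor CHIR99021. The EpiLC medium, its duration and whether a line is 1 clone are not stated in the sources used here. The comparison of EpiLCs with their parents is therefore between labelled cell states, and the loss of the GSK3 inhibitor cannot be told apart from the rest of the conversion. Within a group each library is labelled as a separate line, but 5 lines have a library in both states. P-values of the main test measure the spread between the lines within groups and do not use this pairing. A fit with the cell line as a block, which does use it, is given as an alternative.

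Library totals ran from 14255399 to 33376660 counts. Rn45s, the ribosomal RNA precursor, took 1913 to 5106 CPM in 9 libraries, all from ESC and PGC-ESC lines, and 17130 to 51924 CPM in the other 11. Bax stood at 1.66 to 2.43 CPM (counts scaled to the library total) in the 7 libraries of BaxKO lines, against 229 to 533 CPM in the 12 libraries of Host and DKO lines. Pmaip1, which encodes Noxa, was at 1.26 to 5.69 CPM in the DKO and EpiLC DKO libraries and at 20.2 to 333 CPM in the Host and EpiLC Host libraries. It was also low in lines not labelled as lacking it, at 6.27 to 9.54 CPM in ESC BaxKO and 4.34 to 43.4 CPM in PGC-ESC BaxKO, the lowest of which lay inside the DKO range. Bbc3, which encodes Puma, was at 27.5 to 49.2 CPM in PGC-ESC DKO and at 38.5 to 49.7 CPM in ESC Host. It was at 50.4 to 90.5 CPM in EpiLC DKO and at 82.2 to 94.3 CPM in EpiLC Host. Its reads thus overlapped between DKO and Host libraries in both states. The sources used here do not state which part of it was deleted. An EGFP reporter was read at 1704 to 9722 CPM in the Bax and DKO lines, at up to 807 CPM in EpiLC DKO and at up to 0.547 CPM in Host libraries, so it differed together with genotype. The summed state markers separated the labelled states: the summed level of 7 naive genes was 2205 to 3510 CPM in the 15 ESC and PGC-ESC libraries and 73.4 to 141.8 CPM in the 5 EpiLC libraries, and that of 7 formative epiblast genes was 223 to 419 CPM and 1854 to 3484 CPM. Of the latter list, Otx2 did not separate the states: it was at 2.81 and 6.94 CPM in EpiLC Host, inside the range of the ESC and PGC-ESC libraries (0.379 to 8.96 CPM), and at 10.7 to 36.1 CPM in EpiLC DKO.

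In canonical Wnt signalling, a complex of AXIN, APC, GSK3 and casein kinase marks beta-catenin for destruction. A Wnt ligand, or a chemical inhibitor of GSK3, stops this, and beta-catenin enters the nucleus and binds TCF and LEF proteins on DNA. In naive mouse ESCs the inhibitor is known to act largely by relieving repression by Tcf7l1, and several targets of the pathway, among them Axin2 and Nkd1, feed back on it as inhibitors. The level of such a gene is thus a readout of the pathway and of whatever else controls that gene.

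The 6 genes did not move together between ESCs and EpiLCs. Sp5 and Axin2 fell, and Nkd1 and Wnt8a rose, in Host lines and in DKO lines. The change of Lef1 passed in Host lines by a narrow margin, though Lef1 was lower than in the parent in 1 of the 2 lines, and did not pass in DKO lines. Tcf7 passed in neither. In EpiLC Host against ESC Host, 5 of the 6 genes were called at an adjusted p under 0.05 (3 higher, 2 lower), where 44.0% of all tested genes were called. With each EpiLC paired to its parent by a cell-line block, 4 of the 6 were called, without Lef1 (adjusted p 0.187). In EpiLC DKO against PGC-ESC DKO, 4 of the 6 were called (2 higher, 2 lower), where 47.6% of all tested genes were called. The median log2 fold change of the 6 was 0.86 in Host lines and 0.65 in DKO lines, beside -0.03 and 0.01 over all tested genes. Adjusted p-values of genes are from the quasi-likelihood test of edgeR and the Benjamini-Hochberg method over all 16363 genes. Where a gene is said below not to overlap between the states, the share of all tested genes that do not overlap was not counted. Because these are bulk libraries, fewer expressing cells and less RNA per cell cannot be told apart.

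**Figure D1:**
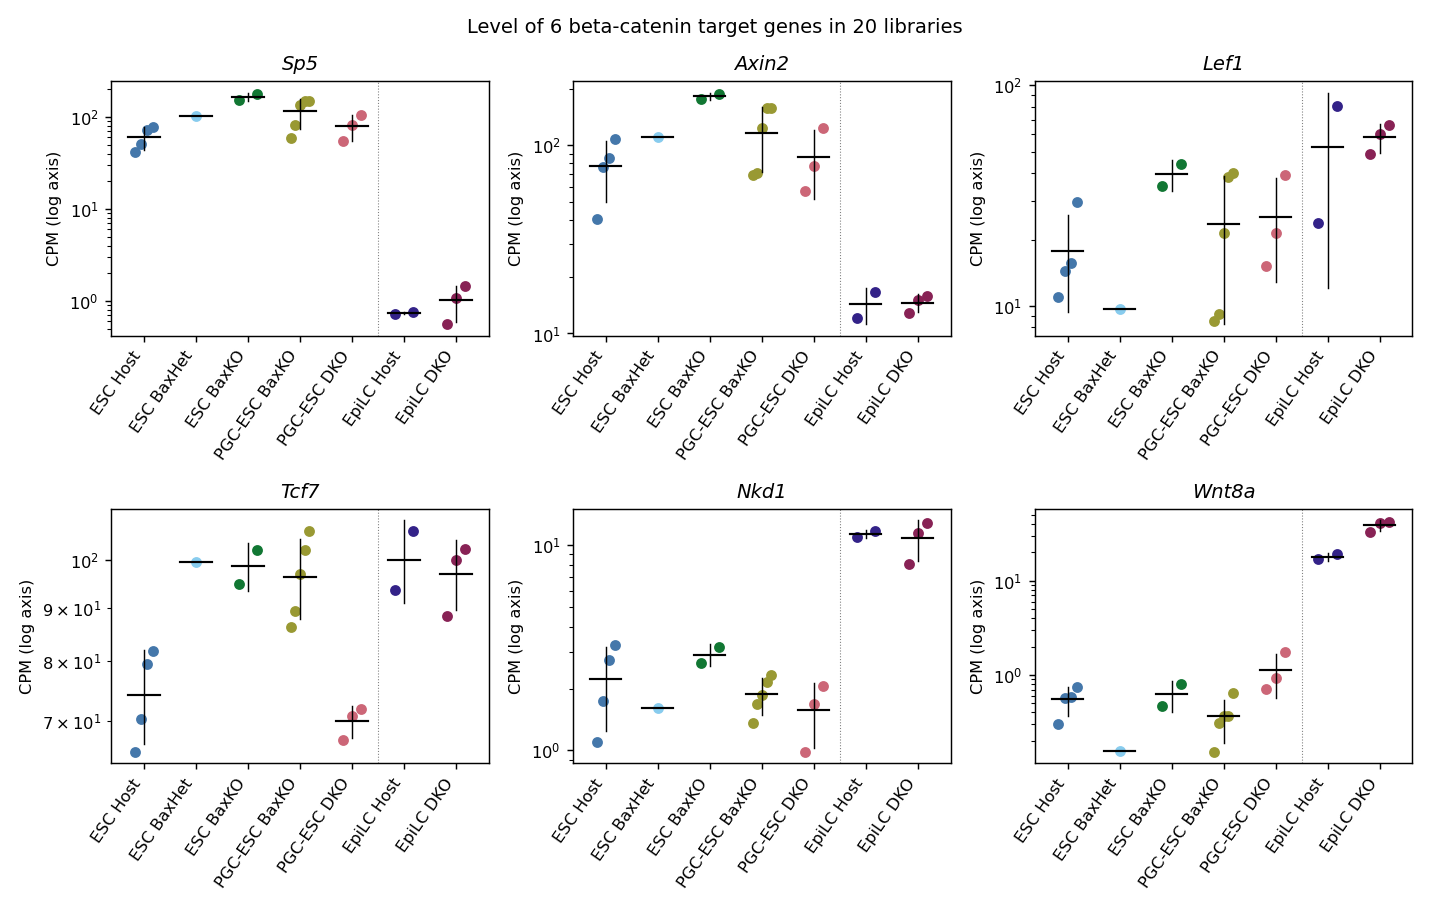
Level of each of the 6 genes (CPM of the library total, log axis) in the 7 groups; each point is 1 library, horizontal bars are group means and vertical lines are ± 1 SD, with none for the single BaxHet line. The 5 EpiLC libraries, right of the dotted line, lie below all 15 others for Sp5 and Axin2 and above all 15 for Nkd1 and Wnt8a. They overlap the others for Lef1 and Tcf7. The share of all tested genes that separate in this way was not counted.

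Wnt8a (chromosome 18, 34542313 to 34548273 on the forward strand, mm10) encodes a secreted Wnt ligand of the gastrulating embryo. In cells of the ESC groups it was close to the limit of detection. ESC Host lines 1 to 4 had 0.568, 0.748, 0.587 and 0.298 CPM, the BaxHet line 0.155 CPM, and ESC BaxKO lines 0.470 and 0.795 CPM. PGC-ESC BaxKO lines 1 to 5 had 0.307, 0.153, 0.366, 0.363 and 0.649 CPM, and PGC-ESC DKO lines 1 to 3 had 0.923, 0.701 and 1.74 CPM. These levels rest on 5 to 30 counts a library. EpiLC Host lines 3 and 4 reached 19.1 and 16.8 CPM, and EpiLC DKO lines 1 to 3 reached 40.9, 42.1 and 32.6 CPM. No EpiLC library overlapped any ESC or PGC-ESC library, and within each of the 5 lines the EpiLC was higher than its parent, by 18.8-fold (DKO 3) to 60.0-fold (DKO 2). The rise was 4.87 ± 0.36 (log2 fold change ± SE, adjusted p 1.33e-08) in Host lines and 4.92 ± 0.38 (adjusted p 2.12e-08) in DKO lines. Of 16363 changes ordered from the highest, Wnt8a stood at place 250 in Host lines and 360 in DKO lines.

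Wnt8a was the gene of the 6 that differed most between the converted groups, and it did so without passing the test. All 3 EpiLC DKO libraries lay above both EpiLC Host libraries, and the difference was 1.11 ± 0.36 (unadjusted p 0.00625, adjusted p 1.00 by edgeR). DESeq2 gave the same contrast an adjusted p of 0.0431. Between these groups 0 of the 6 genes were called by edgeR, where 0.0428% of all tested genes were called, and 1 of the 6 had an unadjusted p under 0.05. The parents, PGC-ESC DKO and ESC Host, differed by 1.06 ± 0.36 (unadjusted p 0.00892, adjusted p 0.519). Origin, the Puma and Noxa deletions and EGFP differ together between these groups and cannot be told apart.

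Lef1 and Tcf7 encode HMG-box proteins that carry beta-catenin on DNA. Lef1 (chromosome 3, 131110471 to 131224356 on the forward strand) varied more than any other of the 6 except Wnt8a among the ESC and PGC-ESC libraries, 5.13-fold between the lowest and the highest. It was at 15.6, 14.4, 29.7 and 10.99 CPM in ESC Host lines 1 to 4, at 9.72 CPM in the BaxHet line and at 34.9 and 44.0 CPM in ESC BaxKO lines. PGC-ESC BaxKO lines 1 to 5 had 8.59, 40.04, 9.20, 21.3 and 38.5 CPM, and PGC-ESC DKO lines 1 to 3 had 21.5, 15.2 and 39.3 CPM. After conversion, EpiLC Host lines 3 and 4 had 23.8 and 80.9 CPM, the lowest and the highest EpiLC values, and EpiLC DKO lines had 65.8, 48.8 and 60.3 CPM. The 2 states overlapped through EpiLC Host 3 alone. Lef1 was higher than in the parent in 4 of 5 lines, by 1.53-fold to 7.36-fold, and lower in Host line 3, at 0.801 of its parent.

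Lef1 rose in EpiLC Host by 1.42 ± 0.56 (adjusted p 0.0493). With the cell line as a block, which pairs each EpiLC with its parent, the change was 1.02 and was not called (adjusted p 0.187). Against ESC Host 3 and 4 alone, the parents of these EpiLCs, it was 1.15 (adjusted p 0.203). Without EpiLC Host 4 it was 0.29 (adjusted p 0.783), and without ESC Host 1, 2 or 4 it was 1.29 to 1.34 with adjusted p 0.0918 to 0.0985. In DKO lines it was 1.03 ± 0.56 (adjusted p 0.139), with a 95% interval of -0.15 to 2.20, and it was called when the fit held the compared groups alone (adjusted p 0.00941). Lef1 shares 1208 exon bases with Gm43352, a gene on the opposite strand that is not listed in the table. The strand setting of the counting is not stated in the sources used here, so reads of the pair cannot be told apart.

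Tcf7 (chromosome 11, 52252371 to 52283014 on the reverse strand), which encodes TCF1, was the steadiest of the 6. Its levels were 81.7, 70.4, 79.4 and 65.4 CPM in ESC Host lines, 99.5 CPM in the BaxHet line, and 102.4 and 94.9 CPM in ESC BaxKO lines. PGC-ESC BaxKO lines had 86.3, 106.7, 89.4, 97.0 and 102.3 CPM, and PGC-ESC DKO lines 67.1, 71.8 and 70.8 CPM. EpiLC Host lines had 93.7 and 106.6 CPM, and EpiLC DKO lines 102.6, 88.4 and 100.2 CPM. By CPM of the library total, EpiLCs were above their own parents in 5 of 5 lines, by 1.18-fold to 1.63-fold, and inside the range of the Bax lines. This count depends on the scaling. With the TMM scaling used in the edgeR test, EpiLC DKO 2 was at 82.6 CPM and its parent at 82.7 CPM. EpiLC Host 3 was then at 88.6 CPM and its parent at 83.5 CPM. The changes of 0.29 ± 0.12 in Host lines (adjusted p 0.0664) and 0.27 ± 0.12 in DKO lines (adjusted p 0.0669) did not pass. Both passed with DESeq2 (adjusted p 0.0201 and 0.0335) and with RLE scaling in edgeR (adjusted p 0.0328 and 0.0490). With the cell line as a block, they were 0.24 and 0.26 and did not pass (adjusted p 0.285 and 0.149). Against the parent lines alone, the change in Host lines was 0.23 (adjusted p 0.195). In the main test the 95% intervals, 0.03 to 0.55 and 0.02 to 0.52, left out any fall and any rise beyond 2-fold. These intervals are not adjusted for the number of genes tested.

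Axin2 and Nkd1 both encode feedback inhibitors, and they went opposite ways. Axin2 (chromosome 11, 108920349 to 108950783 on the forward strand) encodes a scaffold of the complex that destroys beta-catenin. It stood at 85.7, 108.1, 76.3 and 40.7 CPM in ESC Host lines, at 109.9 CPM in the BaxHet line and at 175.5 and 187.7 CPM in ESC BaxKO lines. PGC-ESC BaxKO lines had 71.4, 157.3, 69.2, 123.5 and 158.4 CPM, and PGC-ESC DKO lines 77.4, 57.3 and 123.9 CPM. In EpiLCs it was at 16.6 and 12.1 CPM in Host lines and at 15.8, 15.1 and 12.8 CPM in DKO lines. All 5 EpiLC values lay under the lowest ESC value, that of ESC Host 4, and they spanned 1.37-fold where the 15 others spanned 4.61-fold. Axin2 fell by 2.55 ± 0.40 on the log2 scale in Host lines (adjusted p 5.90e-05) and by 2.75 ± 0.35 in DKO lines (adjusted p 6.74e-06). Within lines the fall ran from 3.35-fold (Host 4) to 9.67-fold (DKO 3), and the EpiLCs thus kept a measurable level of Axin2. Axin2 shares 209 exon bases with Gm11670 on the opposite strand, which is not listed in the table.

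Nkd1 (chromosome 8, 88521354 to 88594884 on the forward strand) encodes a protein that binds Dishevelled, the relay between the receptor and the destruction complex, and dampens the signal. Its levels were 2.76, 1.10, 3.28 and 1.74 CPM in ESC Host lines, 1.62 CPM in the BaxHet line, and 2.67 and 3.18 CPM in ESC BaxKO lines. PGC-ESC BaxKO lines had 2.15, 2.32, 1.36, 1.86 and 1.69 CPM, and PGC-ESC DKO lines 0.984, 1.68 and 2.06 CPM. EpiLC Host lines had 11.7 and 10.97 CPM, and EpiLC DKO lines 11.4, 12.8 and 8.09 CPM. The 2 states did not overlap, and Nkd1 was higher in 5 of 5 EpiLCs than in their parents, by 3.57-fold to 11.6-fold. It rose by 2.19 ± 0.35 in Host lines (adjusted p 6.93e-05) and by 2.60 ± 0.37 in DKO lines (adjusted p 2.15e-05).

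Sp5 (chromosome 2, 70474923 to 70477729 on the forward strand) encodes a zinc-finger transcription factor of the Sp family and is known as a direct target of beta-catenin in ESCs. It had the largest change of the 6 in both sets of lines. ESC Host lines had 77.2, 73.1, 51.2 and 41.9 CPM, the BaxHet line 103.6 CPM, and ESC BaxKO lines 179.6 and 154.9 CPM. PGC-ESC BaxKO lines had 59.6, 135.6, 81.4, 150.1 and 148.5 CPM, and PGC-ESC DKO lines 54.8, 82.1 and 105.8 CPM. EpiLC Host lines had 0.723 and 0.754 CPM, and EpiLC DKO lines 1.44, 1.08 and 0.560 CPM, from 9 to 48 counts a library. The gap between the states was wide: the lowest parent library was ESC Host 4, at 41.9 CPM, and the highest EpiLC library was DKO 1, at 1.44 CPM. Sp5 fell by 6.47 ± 0.51 on the log2 scale in Host lines (adjusted p 2.96e-08), place 105 of all 16363 changes ordered from the lowest. It fell by 6.41 ± 0.42 in DKO lines (adjusted p 3.02e-09), place 63. Within lines the fall was 38.1-fold (DKO 1) to 189-fold (DKO 3).

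Sp5 and Axin2 fell together but differ in the sequence next to their starts, which is shown for that reason. RefSeq windows (GRCm38.p6) of the 250 bases before an annotated transcript start were searched on both strands for the TCF core motifs CTTTGA and CTTTGT. Of the 6 genes, 5 matched an entry, capitals mark matches, and none of the matches found overlap one another. The Sp5 window is chr2:70474673-70474922 and the Axin2 window chr11:108920099-108920348, both on the forward strand and written 5′ to 3′.
Sp5: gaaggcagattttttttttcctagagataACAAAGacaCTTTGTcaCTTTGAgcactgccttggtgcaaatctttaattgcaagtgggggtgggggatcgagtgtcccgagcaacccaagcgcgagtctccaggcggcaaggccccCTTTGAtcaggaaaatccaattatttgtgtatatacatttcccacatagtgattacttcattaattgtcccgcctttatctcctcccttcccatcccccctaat
Axin2: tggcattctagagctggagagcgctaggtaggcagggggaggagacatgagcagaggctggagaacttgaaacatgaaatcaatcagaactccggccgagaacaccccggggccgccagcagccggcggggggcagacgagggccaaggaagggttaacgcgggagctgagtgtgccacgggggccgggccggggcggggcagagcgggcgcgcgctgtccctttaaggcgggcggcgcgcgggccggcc
The Sp5 window held 2 matches to each motif, at 221 to 216, 212 to 207, 204 to 199 and 104 to 99 bases before the start, the first of them on the reverse strand. The Axin2 window held 0. At least 1 match to either motif was found in 27.6% of 32851 such windows (CTTTGA in 13.8%, CTTTGT in 16.5%), and 4 or more in 31 of them (0.0944%). Tcf7 had 0 matches in 2 windows, the second of which overlaps an annotated exon. The first holds an ATG with a reading frame open to the end of the window. It may thus be coding sequence, and the sequence before it was not searched. The 1 window of Nkd1 had 0 and lies inside the gene (chr8:88527383-88527632), so the sequence before the start of the gene given above was not searched. Lef1 had 0 in 3 windows and 3 matches in the fourth (chr3:131156044-131156293), and its window 3 and window 4 lie inside the gene. A match is a run of letters and not a shown binding site, and a window with 0 matches says nothing of sites elsewhere.

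**Figure D2:**
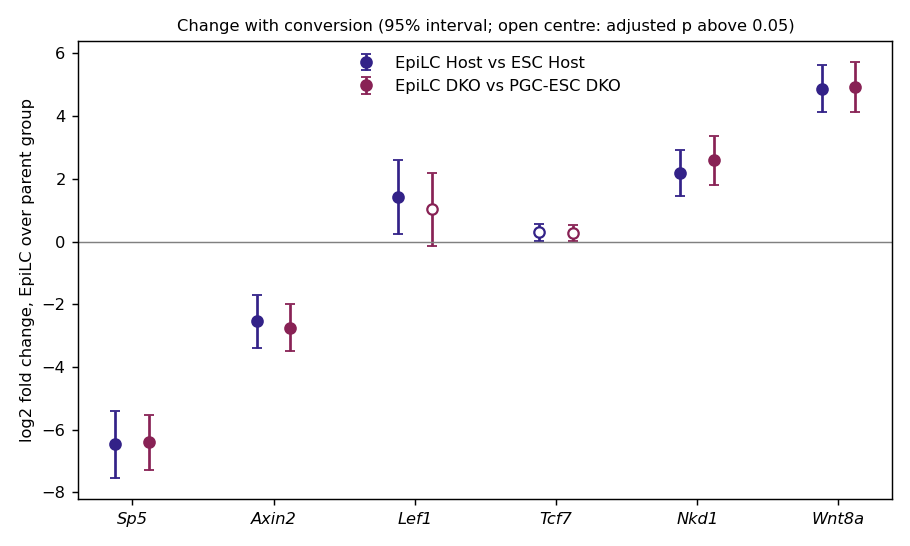
Log2 fold change of each of the 6 genes between EpiLCs and their parent group (points, edgeR) with 95% intervals, for Host lines and DKO lines; open points have an adjusted p above 0.05. Both line sets place Sp5 lowest (-6.47 and -6.41) and Wnt8a highest (4.87 and 4.92), and the intervals of each gene overlap between the sets.

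No gene of the 6 passed a test of the difference in response between Host and DKO lines. The difference between the responses, DKO minus Host, was tested as an interaction and called for 0 of the 6, where 0.00611% of all tested genes were called and 0 of the 6 had an unadjusted p under 0.05. It was 0.06 for Sp5 (95% interval -1.16 to 1.29), -0.20 for Axin2 (-1.22 to 0.82) and -0.40 for Lef1 (-2.08 to 1.29). It was -0.02 for Tcf7 (-0.38 to 0.34), 0.40 for Nkd1 (-0.67 to 1.48) and 0.05 for Wnt8a (-1.18 to 1.27). For Tcf7 a difference beyond 2-fold lay outside the interval. For each of the other 5 the interval took in a 2-fold difference in at least 1 direction.

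Per kilobase of exon (GENCODE M21 models, since the authors' annotation is not stated in the sources used here), levels can be compared between genes. In ESC Host, Sp5 (29.0 ± 8.11 CPM per kb, mean ± SD, n = 4) and Tcf7 (28.3 ± 2.92) were the highest, followed by Axin2 (14.1 ± 5.09), Lef1 (2.01 ± 0.941), Nkd1 (0.487 ± 0.216) and Wnt8a (0.315 ± 0.107). In EpiLC Host (n = 2), made from 2 of these lines, the order was Tcf7 (38.1 ± 3.48 CPM per kb), Wnt8a (10.3 ± 0.943), Lef1 (5.96 ± 4.59), Axin2 (2.61 ± 0.572), Nkd1 (2.49 ± 0.113) and Sp5 (0.352 ± 0.0103). In PGC-ESC DKO (n = 3) the order was Sp5 (38.5 ± 12.1 CPM per kb), Tcf7 (26.6 ± 0.942), Axin2 (15.7 ± 6.20), Lef1 (2.88 ± 1.42), Wnt8a (0.642 ± 0.313) and Nkd1 (0.346 ± 0.120). The genes of EpiLC DKO (n = 3), made from these lines, had the order of EpiLC Host: Tcf7 (36.98 ± 2.89 CPM per kb), Wnt8a (22.1 ± 2.96), Lef1 (6.64 ± 0.990), Axin2 (2.64 ± 0.282), Nkd1 (2.36 ± 0.532) and Sp5 (0.489 ± 0.210). In both sets of lines Sp5 thus had the highest mean of the 6 in the parents and the lowest in the EpiLCs, and Wnt8a, among the lowest pair in the parents, had the second highest mean in the EpiLCs. The means of Sp5 and Tcf7 in the parents, of Nkd1 and Wnt8a in the parents and of Axin2 and Nkd1 in the EpiLCs differed by less than their summed SDs, as did those of Lef1 and its neighbours Wnt8a and Axin2 in EpiLC Host.

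Among the ESC and PGC-ESC groups the order of mean levels was the same for Sp5 and Axin2: ESC BaxKO (167 ± 17.5 and 182 ± 8.69 CPM), PGC-ESC BaxKO (115.1 ± 41.8 and 115.9 ± 44.0), BaxHet, PGC-ESC DKO (80.9 ± 25.5 and 86.2 ± 34.2) and ESC Host (60.8 ± 17.0 and 77.7 ± 28.0). In this order only ESC BaxKO and PGC-ESC BaxKO did not overlap, and all lower neighbours did. Sp5 was higher in ESC BaxKO than in ESC Host by 1.40 ± 0.32 (adjusted p 0.0167) and Axin2 by 1.18 ± 0.33 (adjusted p 0.0499). These were 2 of the 6 called, where 5.02% of all tested genes were called. Lef1 (1.08 ± 0.57, adjusted p 0.284), Tcf7 (0.34 ± 0.12, adjusted p 0.130), Nkd1 (0.31 ± 0.37, adjusted p 0.651) and Wnt8a (0.11 ± 0.43, adjusted p 0.902) were not called. Without ESC BaxKO 1 the Sp5 adjusted p was 0.134 and the Axin2 value 0.183, and without ESC BaxKO 2 they were 0.0922 and 0.268. Axin2 also lost its call without ESC Host 1, 3 or 4 (adjusted p 0.0705 to 0.103). Bax genotype, strain label, time of derivation and EGFP differ together between these groups and cannot be told apart.

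Reads of Y-linked genes were high in the libraries with the highest Lef1 and Axin2. The mean of Ddx3y, Eif2s3y, Kdm5d and Uty was 42.8 to 61.1 CPM in 5 of the 15 ESC and PGC-ESC libraries (both ESC BaxKO lines, PGC-ESC BaxKO 2 and 5, and PGC-ESC DKO 3) and 0 to 3.84 CPM in the other 10. Lef1 was at 34.9 to 44.0 CPM in the 5 and at 8.59 to 29.7 CPM in the 10. Axin2 was at 123.9 to 187.7 CPM in the 5 and at 40.7 to 123.5 CPM in the 10. Neither gene overlapped between these sets, Axin2 by a narrow margin. The sets were defined from the data and are described without a test. The share of all tested genes that do not overlap between them was not counted. Sp5 overlapped (105.8 to 179.6 and 41.9 to 150.1 CPM), as did Tcf7, Nkd1 and Wnt8a. With a term for the Y-linked set in the edgeR fit, a choice made after seeing the data, ESC BaxKO exceeded ESC Host by 1.02 for Sp5 (adjusted p 0.249), by 0.58 for Axin2 (adjusted p 0.518), and the Lef1 difference was -0.01. With the same term the Lef1 rise in EpiLC DKO was 1.17 (adjusted p 0.0436).

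No gene of the 6 passed the test between PGC-derived and embryo-derived lines of the same strain label. Between PGC-ESC BaxKO and ESC BaxKO 0 of the 6 were called, where 0.0367% of all tested genes were called and 0 of the 6 had an unadjusted p under 0.05. All 6 differences were below 0, from -0.05 (Tcf7, adjusted p 0.910) to -0.80 (Wnt8a, adjusted p 0.550), with Axin2 at -0.66 ± 0.32 (adjusted p 0.515) and Sp5 at -0.55 ± 0.31 (adjusted p 0.570). The 95% intervals reached -1.34 for Axin2 and -1.20 for Sp5, so a 2-fold lower level in PGC-ESC BaxKO lay inside them. Both ESC BaxKO lines had high Y-linked reads, as did PGC-ESC BaxKO 2 and 5 but no other line of that group. Origin and these reads thus differ partly together. With the Y-linked term the differences were -0.36 for Axin2, -0.35 for Sp5 and -0.29 for Lef1. They were -0.61 for Nkd1, -0.68 for Wnt8a and 0.019 for Tcf7, and 0 of the 6 were called. Between PGC-ESC DKO and ESC Host 0 of the 6 were called, where 0.116% of all tested genes were called, and Wnt8a, given above, was the 1 gene with an unadjusted p under 0.05. Sp5 differed there by 0.49 ± 0.29 (adjusted p 0.770), Axin2 by 0.23 ± 0.31 (adjusted p 0.890) and Lef1 by 0.56 ± 0.52 (adjusted p 0.867).

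Across the 15 ESC and PGC-ESC lines, Sp5 and Axin2 varied together. Of 15 pairs among the 6 genes (log2 levels, two-sided permutation tests with 100000 permutations, adjusted over the 15), Sp5 and Axin2 had Pearson's r of 0.865 (adjusted permutation p 0.0015) and Spearman's rho of 0.843 (adjusted permutation p 0.0033). The permutations mixed lines of all groups, so these p-values also take in differences between groups. Without ESC Host 4 and ESC BaxKO 1, the lines farthest from the Sp5 median, r was 0.806. It was 0.930 within the 8 Bax lines, 0.592 within the 7 Host and DKO lines and 0.638 within the 10 lines low in Y-linked reads. It was 0.893 and 0.824 within the 9 lines of low and the 6 of high Rn45s. Sp5 and Tcf7 had r of 0.724 and rho of 0.654 (adjusted permutation p 0.0142 and 0.0498), and r of 0.671 without the same 2 lines. Their r was 0.830 within the Bax lines and -0.12 within the Host and DKO lines, so the relation did not hold within both strain labels. Axin2 and Lef1 were the third pair to pass over all 15 lines, but they fell into separate clusters by Y-linked reads, so no pooled value is given. Within the 10 lines low in such reads their r was 0.221. The other 12 pairs did not pass after adjustment.

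**Figure D3:**
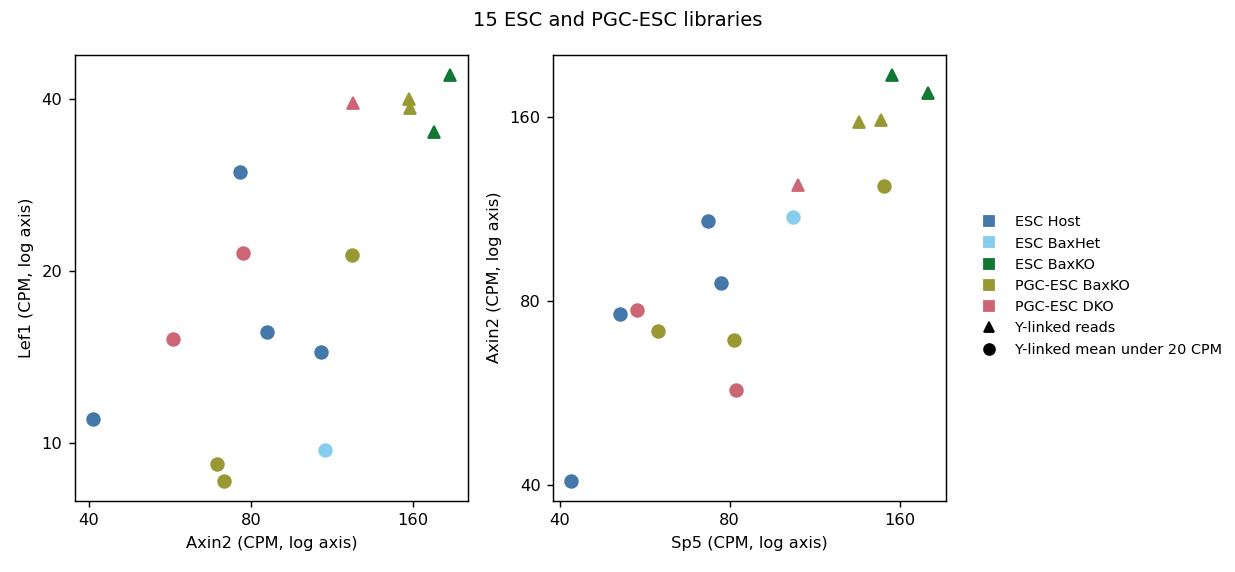
Lef1 against Axin2 and Axin2 against Sp5 (CPM, log axes) in the 15 ESC and PGC-ESC libraries, 1 point each, coloured by group; triangles are the 5 libraries with Y-linked reads and circles the other 10. The triangles hold the 5 highest values of both Lef1 (34.9 to 44.0 CPM) and Axin2 (123.9 to 187.7 CPM), and Axin2 rises with Sp5.

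Other genes of the pathway were described by 4 lists. Of 20 tested target genes besides the 6, 4 rose and 5 fell in Host lines (45.0% called) and 4 rose and 6 fell in DKO lines, shares close to those of all genes, with medians of -0.48 and -0.0045. Notum, which encodes an enzyme that inactivates Wnt ligands, went the way of Sp5. It was at 131 ± 55.9 CPM in ESC Host and 1.11 ± 0.301 in EpiLC Host, and at 132.9 ± 22.8 CPM in PGC-ESC DKO and 1.30 ± 0.436 in EpiLC DKO, log2 fold changes of -6.997 ± 0.46 and -6.92 ± 0.38 (adjusted p 3.40e-09 and 3.92e-10). The caudal homeobox gene Cdx1 changed by -5.58 ± 0.76 and -5.86 ± 0.66 (adjusted p 1.30e-05 and 1.43e-06). Nkd2, the paralog of Nkd1, went the way of Nkd1: 0.642 ± 0.340 CPM in ESC Host against 10.6 ± 1.05 in EpiLC Host, a rise of 3.86 ± 0.33, and a rise of 4.19 ± 0.38 in DKO lines (adjusted p 8.83e-08 and 1.34e-07). Myc, a growth-promoting transcription factor gene, rose by 3.23 ± 0.36 and 2.89 ± 0.38 (adjusted p 1.65e-06 and 8.59e-06).

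Of 17 genes of the destruction complex and signal relay, 4 rose and 1 fell in Host lines (29.4% called, beside 44.0% of all tested genes) and 6 rose and 1 fell in DKO lines (41.2%, beside 47.6%). Their medians were 0.07 and 0.02. Ctnnb1, which encodes beta-catenin itself and is named here after its values were seen, was at 0.04 and -0.06 and was not called. Apc2, a paralog of the tumour suppressor Apc, rose by 2.09 ± 0.52 and 2.46 ± 0.55 (adjusted p 0.00358 and 0.00140) from 0.793 ± 0.646 CPM in ESC Host and 0.682 ± 0.357 CPM in PGC-ESC DKO. The Dishevelled gene Dvl1 rose by 0.72 ± 0.18 and 0.84 ± 0.17, and Amer1, which encodes a scaffold of the complex, by 0.95 ± 0.29 and 1.13 ± 0.29 (adjusted p at most 0.0144). Btrc, the ubiquitin ligase subunit that recognises marked beta-catenin, changed by -0.66 ± 0.18 and -0.58 ± 0.17 (adjusted p 0.00615 and 0.00815).

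Of 12 TCF factors and cofactors, 2 rose and 7 fell in Host lines (75.0% called, beside 44.0% of all tested genes, with a median of -0.46) and 2 rose and 5 fell in DKO lines (58.3%, beside 47.6%, with a median of -0.34). The difference of these shares from those of all genes was not tested. Tle5, a short member of the Groucho corepressor family, changed by -2.84 ± 0.32 and -2.84 ± 0.28, and Tcf7l2, a TCF factor, by -0.71 ± 0.22 and -0.97 ± 0.20 (adjusted p at most 0.0130). Bcl9, which links beta-catenin to its coactivators, rose by 1.39 ± 0.25 and 1.23 ± 0.25, and Ctnnbip1, an inhibitor of the contact between beta-catenin and TCF, by 1.11 ± 0.22 and 0.88 ± 0.22 (adjusted p at most 0.00327). The 5 listed naive genes known to be repressed by Tcf7l1 all fell in both sets of lines, where 44.0% and 47.6% of all tested genes were called in either direction (medians -4.77 and -4.39). Tfcp2l1 changed by -7.13 ± 0.28 and -6.53 ± 0.23, Klf2 by -5.74 ± 0.28 and -4.56 ± 0.22, Esrrb by -4.77 ± 0.21 and -4.39 ± 0.18, and Nanog by -2.59 ± 0.35 and -3.13 ± 0.31 (adjusted p at most 1.11e-05). These are also markers of the naive state, whose label separates the groups.

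**Figure D4:**
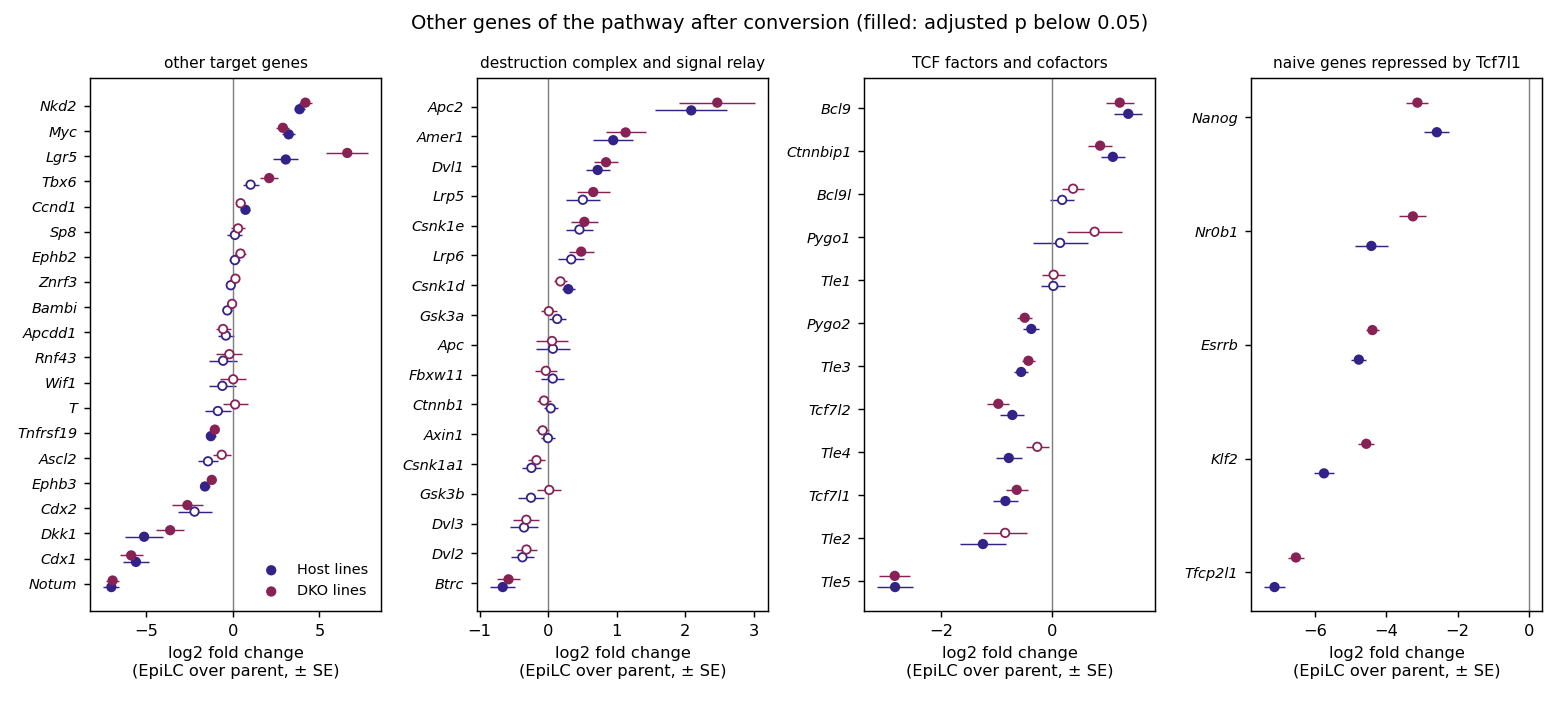
Log2 fold change ± SE between EpiLCs and their parents (edgeR) for the tested genes of 4 pathway lists, Host lines in blue and DKO lines in red; filled points have an adjusted p below 0.05 and each panel has its own axis. Notum and Cdx1 lie near Sp5 (-6.997 and -5.58 in Host lines), Nkd2 lies above 3, the relay genes other than Apc2 lie within 1.13 of zero, and the 5 naive genes lie at or below -2.59.

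The summed levels of markers of other cell types differed between the states for 3 of 5 lists and overlapped for the other 2. Summed over 5 genes, neuroectoderm markers were at 20.8 to 49.4 CPM in the ESC and PGC-ESC libraries and at 285 to 374 CPM in the EpiLC libraries, and primitive endoderm markers at 3.76 to 11.3 and 12.7 to 29.8 CPM. The endoderm gene Dab2 was at 0.199 to 2.23 CPM in the former libraries and 7.22 to 18.2 CPM in the latter, while Gata6, Sox17 and Pdgfra overlapped between the states. The 8 markers of primitive streak and mesendoderm, where Wnt8a is expressed in the embryo, were also summed. Their sum was at 23.0 to 40.1 CPM in the former and 11.6 to 17.7 CPM in the latter. They did not all fall: of 6 tested, 1 was called higher and 3 lower in each conversion (66.7%, beside 44.0% and 47.6% of all tested genes). Gsc was at 5.33 to 20.4 CPM in the former and 0.0622 to 0.673 CPM in the latter. Mixl1 was at 0.396 to 0.920 CPM and 1.12 to 2.73 CPM, while T and Eomes overlapped between the states. The summed 8 fibroblast and feeder markers were at 2.77 to 22.9 and 16.4 to 23.6 CPM, which overlap. Of 5 tested, 3 were called higher and 0 lower in each conversion (60.0%, beside 44.0% and 47.6% of all tested genes). Thy1 (at least 5.15 CPM in EpiLCs, at most 3.01 elsewhere), Dcn (1.61 and 0.129) and Col1a2 (1.87 and 1.59) did not overlap. Col1a1 and Pdgfrb did. The EpiLC range of the summed 5 trophoblast markers (6.71 to 11.1 CPM) lay inside that of the others (3.22 to 48.5 CPM). Cer1 and Postn were at 0 in all 15 ESC and PGC-ESC libraries, and Elf5 and Postn in both EpiLC Host libraries. Their part in the results was not tested.

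Over all 20 libraries, the genes with profiles most like each of the 6 were found by Pearson's r of log2 CPM, given as a description, since the 20 libraries share the contrast of states. For Sp5 they were Sh2d4b (0.990), Osm (0.989), which encodes the cytokine oncostatin M, and Fbrsl1 (0.988). For Axin2 they were Dhrs11 (0.984), the Frizzled receptor gene Fzd5 (0.983) and the progranulin gene Grn (0.982). For Nkd1 they were Ramp3 (0.959), Frmd5 (0.956) and Syt1 (0.955), and for Wnt8a the metalloprotease gene Adamts1 (0.982), Hs6st2 (0.974) and Synpo2 (0.973). Lef1 and Tcf7 had no such close match: the highest were Sema6b (0.843), Ankrd6 (0.822) and Ppm1a (0.814) for Lef1, and Ppp1r2 (0.830), Zfp764 (0.800) and Cacnb1 (0.800) for Tcf7. Over the 15 ESC and PGC-ESC libraries other genes came first: D5Ertd605e for Sp5 (0.932), Adgrl2 for Axin2 (0.960), Zbtb9 for Lef1 (0.884), Dop1b for Tcf7 (0.935), Adrb3 for Nkd1 (0.772) and Asb6 for Wnt8a (0.908).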

How the data were processed

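Counts per gene for 20 libraries were deposited by the authors in 1 table. Reads were aligned with STAR 2.7.7a to mm10, per the submitters' processing notes; the counting tool, annotation and strand setting are not stated in the sources used here. All values were whole numbers. CPM is a count scaled to the library total; CPM per kb also divides by exon length (GENCODE M21).

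The counts were tested in R 4.3.3 with edgeR 4.0.16 (quasi-likelihood F test, TMM scaling, filterByExpr, 1 coefficient for each of the 7 groups, two-sided p-values adjusted by Benjamini-Hochberg over the 16363 genes tested, call at an adjusted p under 0.05); 4998 genes were not tested. SE is the size of the log2 fold change divided by the square root of F. The log2 levels used in correlations are of TMM-scaled CPM with a prior count of 2, and CPM levels have no prior count. The 7 comparisons were both conversions, their difference, EpiLC DKO against EpiLC Host, and 3 comparisons of ESC and PGC-ESC groups. The script was tested on simulated data. Alternatives were RLE scaling, scaling without Rn45s, no filter, DESeq2 1.42.0, the compared groups alone, parent lines alone, a cell-line block, each library left out and, added after seeing the data, a Y-linked term.

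Each EpiLC has the number of the line it came from, per the labels, so the numbers pair the samples; deviations of paired libraries from their group means correlated at 0.0931 to 0.172 over genes. The 6 genes and all lists were chosen with earlier results of these data known. Named were the 6 genes, up to 4 called genes of each of the 4 pathway lists with the smallest adjusted p, and the 3 genes most alike to each member (over 15 libraries, the first is named); Ctnnb1 and single marker genes were named after their values were seen.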

Additional observations from a re-analysis of the deposited data

How the results depend on the processing

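The calls of Sp5, Axin2, Nkd1 and Wnt8a in both conversions kept their direction and stayed past the threshold in all 14 alternatives run for Host lines and all 13 for DKO lines. Of 588 values of the 6 genes under an alternative, 518 kept direction and side of the threshold, 16 lost a call, 8 gained one and 46 changed sign, none of these called. No scaling moved the median of all genes by over 0.1. The cause of the changes below was not tested. Between EpiLC DKO and EpiLC Host, DESeq2 called 1 of the 6. Between ESC BaxKO and ESC Host, 1 of the 6 was called with only the compared groups, 0 with the Y-linked term, and 0 to 2 with a library left out.

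With the cell-line replicate block, 4 of the 6 were called in each conversion (Lef1 in Host lines 1.02), no other call of the 6 changed, and differences between the responses turned to -0.16 for Sp5, 0.071 for Lef1, 0.021 for Tcf7 and -0.15 for Wnt8a. With only parent lines they turned to -0.20 for Sp5, 0.041 for Tcf7 and -0.13 for Wnt8a. Tcf7 between PGC-ESC DKO and ESC Host turned to 0.011 with RLE scaling, 0.010 with DESeq2 and 0.012 with only the compared groups. With the Y-linked term, values turned to -0.12 (Axin2) and -0.13 (Lef1) between the EpiLC groups, -0.015 for Axin2 between PGC-ESC DKO and ESC Host, 0.019 for Tcf7 between the BaxKO groups, and -0.0086 (Lef1) and -0.10 (Wnt8a) between ESC BaxKO and ESC Host.

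With 1 library left out, values between the EpiLC groups ran from -0.18 to 0.28 for Axin2, -0.46 to 1.30 for Lef1, -0.12 to 0.063 for Tcf7 and -0.20 to 0.090 for Nkd1. The difference between the responses ran from -0.26 to 0.28 for Sp5, -0.41 to 0.11 for Axin2, -1.02 to 0.74 for Lef1, -0.11 to 0.076 for Tcf7 and -0.14 to 0.42 for Wnt8a. PGC-ESC DKO against ESC Host ran from -0.073 to 0.42 for Axin2 and -0.073 to 0.026 for Tcf7, and ESC BaxKO against ESC Host from -0.30 to 0.46 for Wnt8a. A group left with 1 library is assumed to vary like the others.

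Counts over all genes moved by over 1.5 times in 5 comparisons. Between the EpiLC groups they were 7, and 33 with DESeq2 and 11 without EpiLC DKO 1. For the difference between responses they were 1, and 5 with DESeq2, 2 with the Y-linked term, 3 without ESC Host 4, and 0 with the block, with only the compared groups or without EpiLC Host 4. For PGC-ESC DKO against ESC Host they were 19, and 90 with DESeq2, 9 with only the compared groups and 44 without ESC Host 4. For PGC-ESC BaxKO against ESC BaxKO they were 6, and 71 with DESeq2, 10 without the filter, 0 with RLE scaling, the compared groups or the Y-linked term, and 0 to 12 with a library left out. For ESC BaxKO against ESC Host they were 821, and 1419 with DESeq2, 136 with only the compared groups, 2139 with parent lines, 210 with the Y-linked term, and 245, 182 and 537 without ESC BaxKO 1, ESC BaxKO 2 and ESC Host 3. Depth limits Wnt8a in parents and Sp5 in EpiLCs, which rest on few counts.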
